A study of Homo sapiens with 6 samples.

Results

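The genes described here are those of the J-domain (DNAJ) cochaperones, taken from the gene tables by name: every gene called Dnaja, Dnajb or Dnajc followed by a number and at most 1 letter, without Dnajb1, Dnajb9, Dnajb11 and Dnajc3. The rule gave 41 of the 53492 genes in the tables, of which 4 belong to class A, 10 to class B and 27 to class C. Their transcript levels were compared between 3 libraries of cells transfected with pCS2-eGFP-CCNB1IP1, called GFP-CCNB1IP1, and 3 of cells transfected with pCS2-eGFP-N, called GFP. All 6 libraries are labelled SH-SY5Y, a human neuroblastoma line, and none of the labels gives a time after transfection, the share of cells transfected or a separate culture for each replicate. The p-values therefore measure the spread between these libraries, which may be technical. CCNB1IP1, also called HEI10, is a ubiquitin ligase known from meiotic crossing over.

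J-domain proteins are the partners that bring client proteins to the chaperone Hsp70 and, through a conserved His-Pro-Asp motif in the J domain, stimulate its ATPase. Nucleotide exchange factors then reset Hsp70 for another round. Class A proteins carry an N-terminal J domain, a glycine- and phenylalanine-rich stretch and a zinc-binding region, class B proteins lack the zinc-binding region, and class C proteins share only the J domain, which may sit anywhere in the chain. Neurons depend on several of them, among them the cysteine string protein of synaptic vesicles (Dnajc5) and auxilin (Dnajc6), which strips clathrin coats.

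The tables named mouse genes throughout: all 53492 identifiers carried the mouse prefix and 0 matched a human gene table, so every value here belongs to a mouse gene although the labels name human cells. Whether these tables come from the labelled cells could not be settled here, and if they do not, the group names on every value below would not hold. Mouse Ccnb1ip1 had 0, 0.133 and 0.191 FPKM in GFP-CCNB1IP1 replicates 1 to 3, against 0.0334, 0.125 and 0.0698 FPKM in GFP replicates 1 to 3. The groups overlapped near 0, so this gene does not check the labels; whether a transfected sequence would be counted under it is not known. FPKM is the number of fragments assigned to a gene, scaled by transcript length and library size. Of 16 markers of noradrenergic neuroblastoma, 12 averaged at least 1 FPKM. Nefl and Nefm stayed under 0.1 FPKM in each library, and Dbh had 0.371 to 0.543 FPKM in the GFP-CCNB1IP1 libraries and 0.613 to 1.14 FPKM in the GFP libraries. The marker sum was 1016 to 1099 FPKM in the GFP-CCNB1IP1 libraries and 1190 to 1274 FPKM in the GFP libraries, and its part in the results below was not tested. Chgb had the largest difference in FPKM among these markers, at 359.1 ± 34.3 FPKM in the GFP-CCNB1IP1 libraries and 467.9 ± 29.3 FPKM in the GFP libraries (SD, n = 3 each). Its groups lay apart, as did those of Ret, Chga and Slc18a2, with means of 125.5, 79.4 and 36.0 FPKM in the GFP-CCNB1IP1 libraries and 149.6, 89.2 and 42.0 FPKM in the GFP libraries. On that lower side the groups of 8.9% of all genes tested lay apart. None of the 16 markers had groups apart on the higher side, and none passed at an adjusted p under 0.05 (smallest 0.176, limma). Gata2, Gata3 and Stmn2 had higher means in the GFP-CCNB1IP1 libraries, with overlapping groups. Of 19 markers of fibroblasts, astrocytes, blood, endothelium and epithelium, 3 averaged at least 1 FPKM (Pdgfra, Pdgfrb and Pecam1), with sums of 9.12 to 11.6 FPKM in the GFP-CCNB1IP1 libraries and 8.56 to 9.86 FPKM in the GFP libraries. In such bulk samples fewer cells of a type and less RNA per cell cannot be told apart. Depth relative to the GFP libraries, estimated from the width of the confidence bounds, ran from 0.743 (GFP-CCNB1IP1 replicate 2) to 1.04 in the GFP-CCNB1IP1 libraries and from 0.950 to 1.06 in the GFP libraries.

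The tables held a broad set of J-domain transcripts, led by 3 genes of different classes and places. Dnaja1, a cytosolic class A partner of Hsp70, had a mean level of 116.6 FPKM over the 6 libraries. Next came Dnajc8, a protein found with the spliceosome, at 85.9 FPKM, and Dnajc7, whose tetratricopeptide repeats hold both Hsp70 and Hsp90, at 85.2 FPKM. These 3 genes made up 37.5% of the FPKM summed over all 41. A further 16 members averaged 10 to 50 FPKM and another 16 averaged 1 to 10 FPKM. The remaining 6 averaged under 1 FPKM and were not tested; they were the germ line or cilium members. Dnajb13, a protein of sperm flagella and motile cilia, reached 0.596, 0.589 and 0.886 FPKM in the GFP-CCNB1IP1 libraries and 0.513, 0.805 and 0.815 FPKM in the GFP libraries. Dnajb7 and Dnajb8 were at or below 0.112 FPKM in each library, and Dnajb3, Dnajc5b and Dnajc5g were listed at 0 in all 6. The Dnajb13 locus overlaps that of Ucp2, which averaged 189.6 FPKM.

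**Figure D1:**
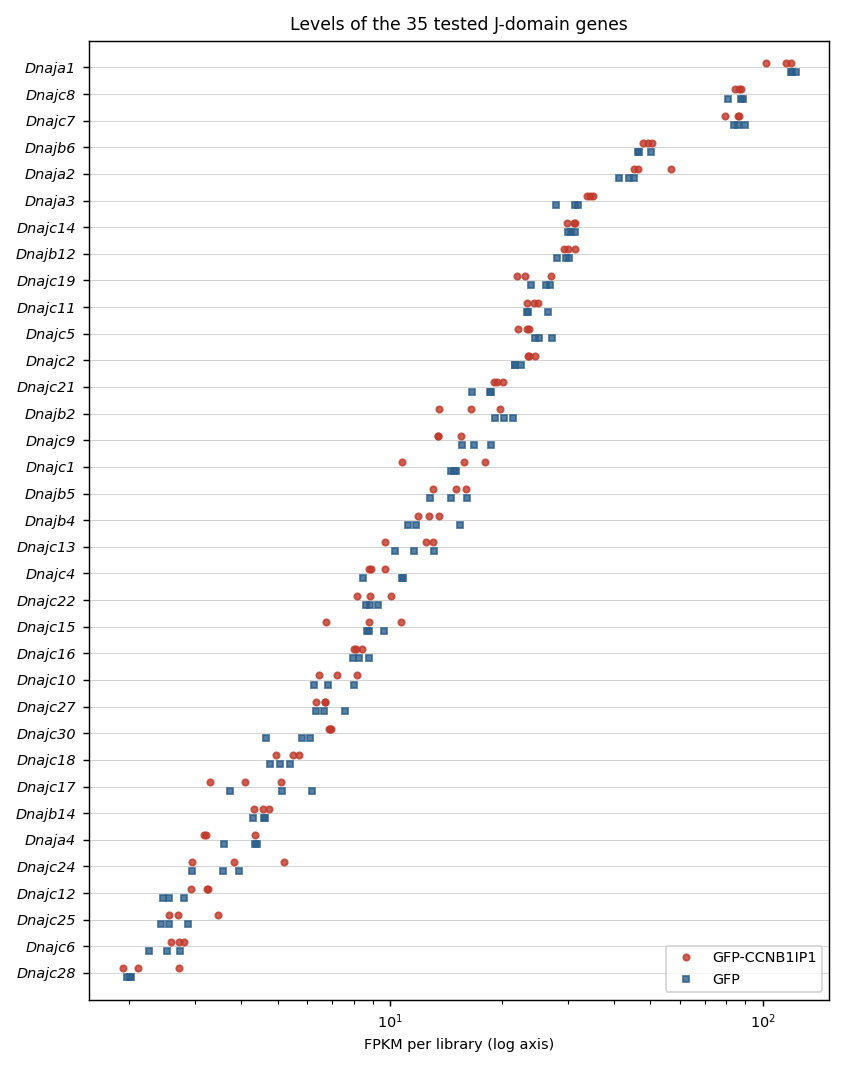
FPKM in each library on a log axis for the 35 J-domain genes with a mean of at least 1 FPKM, ordered by mean level. Circles (upper in each row) are the 3 GFP-CCNB1IP1 libraries and squares (lower) the 3 GFP libraries; the levels run from about 2 FPKM (Dnajc28) to over 100 FPKM (Dnaja1), and for 27 of the 35 genes the groups overlap.

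Neighbours in this order were often not separable. Dnajc8 had 86.2, 87.3 and 84.5 FPKM in the GFP-CCNB1IP1 libraries and 87.8, 80.7 and 88.8 FPKM in the GFP libraries. Dnajc7 had 86.1, 79.4 and 86.4 FPKM in the GFP-CCNB1IP1 libraries and 84.0, 89.7 and 85.7 FPKM in the GFP libraries. The ranges of these genes cover each other, while Dnaja1 lay above both in each of the 6 libraries. Below them Dnajb6, which in human cells keeps polyglutamine proteins from aggregating, averaged 48.4 FPKM, and Dnaja2, a second cytosolic class A protein, 46.4 FPKM. Dnaja3 of the mitochondrial matrix averaged 32.4 FPKM, and Dnajc14 and Dnajb12, both anchored in the membrane of the endoplasmic reticulum, averaged 30.8 and 29.8 FPKM.

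Summed over the 41 genes, the family's level was close to the same in both groups. The sum was 794.1, 737.0 and 764.3 FPKM in GFP-CCNB1IP1 replicates 1 to 3 and 767.5, 768.9 and 772.3 FPKM in GFP replicates 1 to 3. The means were 765.1 ± 28.5 FPKM in the GFP-CCNB1IP1 libraries and 769.5 ± 2.45 FPKM in the GFP libraries (SD, n = 3 each), so the groups overlapped and the GFP-CCNB1IP1 libraries were spread more widely. Class A summed to 199.9 ± 15.7 FPKM in the GFP-CCNB1IP1 libraries and 198.6 ± 4.44 FPKM in the GFP libraries, class B to 128.8 ± 0.234 FPKM in the GFP-CCNB1IP1 libraries and 129.7 ± 2.83 FPKM in the GFP libraries, and class C to 436.5 ± 12.8 FPKM in the GFP-CCNB1IP1 libraries and 441.2 ± 2.01 FPKM in the GFP libraries. The ratio of the family's sum to the FPKM of Hspa8, the constitutive cytosolic Hsp70, was 0.703, 0.713 and 0.686 in the GFP-CCNB1IP1 libraries and 0.660, 0.619 and 0.640 in the GFP libraries. Those ratios did not overlap, and the ratio was not tested. The sums overlapped between the groups, while the Hspa8 values, given further on, were lower in all 3 GFP-CCNB1IP1 libraries. Hspa8 itself did not pass (adjusted p = 0.357, limma).

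**Figure D2:**
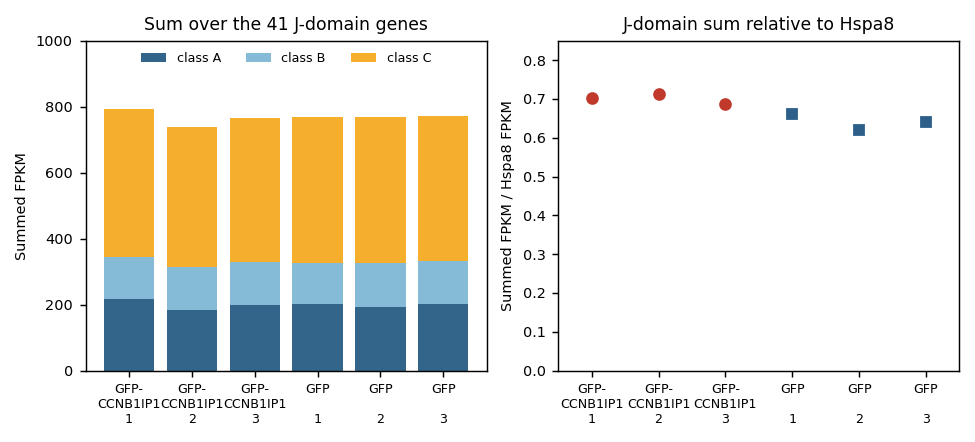
Left, FPKM summed over the 41 J-domain genes in each library, stacked by class; right, the same sum divided by the FPKM of Hspa8, with circles for GFP-CCNB1IP1 and squares for GFP libraries. The sums run from 737.0 to 794.1 in the GFP-CCNB1IP1 libraries and from 767.5 to 772.3 in the GFP libraries, while the ratio is 0.686 to 0.713 in the GFP-CCNB1IP1 libraries and 0.619 to 0.660 in the GFP libraries.

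The main comparison asked which J-domain genes differed between the GFP-CCNB1IP1 and the GFP libraries. None of the 35 tested members passed at an adjusted p under 0.05, where 0.00756% of the 13231 genes tested did (limma on log2(FPKM + 1), two-sided, Benjamini-Hochberg adjustment over all genes tested; smallest adjusted p of a member 0.352). An unadjusted p under 0.05 was reached by 2 higher members, Dnajc30 and Dnaja3, and by 3 lower members, Dnajc9, Dnajc5 and Dnajb2. This is 5.71% of members on the higher side, against 5.59% of all genes tested, and 8.57% on the lower side, against 5.77% of all genes. The higher count was 0 without GFP-CCNB1IP1 replicate 1 and 1 without GFP-CCNB1IP1 replicate 3, GFP replicate 2 or GFP replicate 3, and the lower count was 0 without GFP-CCNB1IP1 replicate 2 or GFP replicate 2 and 1 without GFP-CCNB1IP1 replicate 3 or GFP replicate 3. The 3 values of each group lay apart for 6 higher members (17.1%, against 8.7% of all genes) and 2 lower members (5.71%, against 8.9% of all genes). In either direction the groups lay apart for 22.9% of members, against 17.6% of all genes. With a library left out the higher count was 6 to 9. The lower count was then 5 without GFP-CCNB1IP1 replicate 1 or GFP replicate 1, 4 without GFP replicate 3 and otherwise 2 or 3. Groups of 2 and 3 libraries lie apart more easily than groups of 3, so the left-out counts are not comparable with those shares. These are counts of a few genes with no test of the share, and nothing is read from them about the family.

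Fold changes were small on both sides. The log2 fold change, on the log2(FPKM + 1) scale, was above 0 for 21 members and below 0 for 14 (48.6% of all genes tested were below 0), with a median of 0.0057, against 0.0037 over all genes tested. It ran from -0.29 (Dnajb2) to 0.29 (Dnajc30). On this scale the 95% interval lay within 1.5-fold in either direction for 34 of the 35, the exception being Dnajc17, a nuclear class C protein, at -0.63 to 0.20. The scale understates the change of low genes. In FPKM itself the intervals of low members would be wider, and Dnajc17 need not be the only exception. Over all genes tested the share within 1.5-fold was 90.1%. The median interval reached 0.20 to each side of the estimate on the log2 scale.

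**Figure D3:**
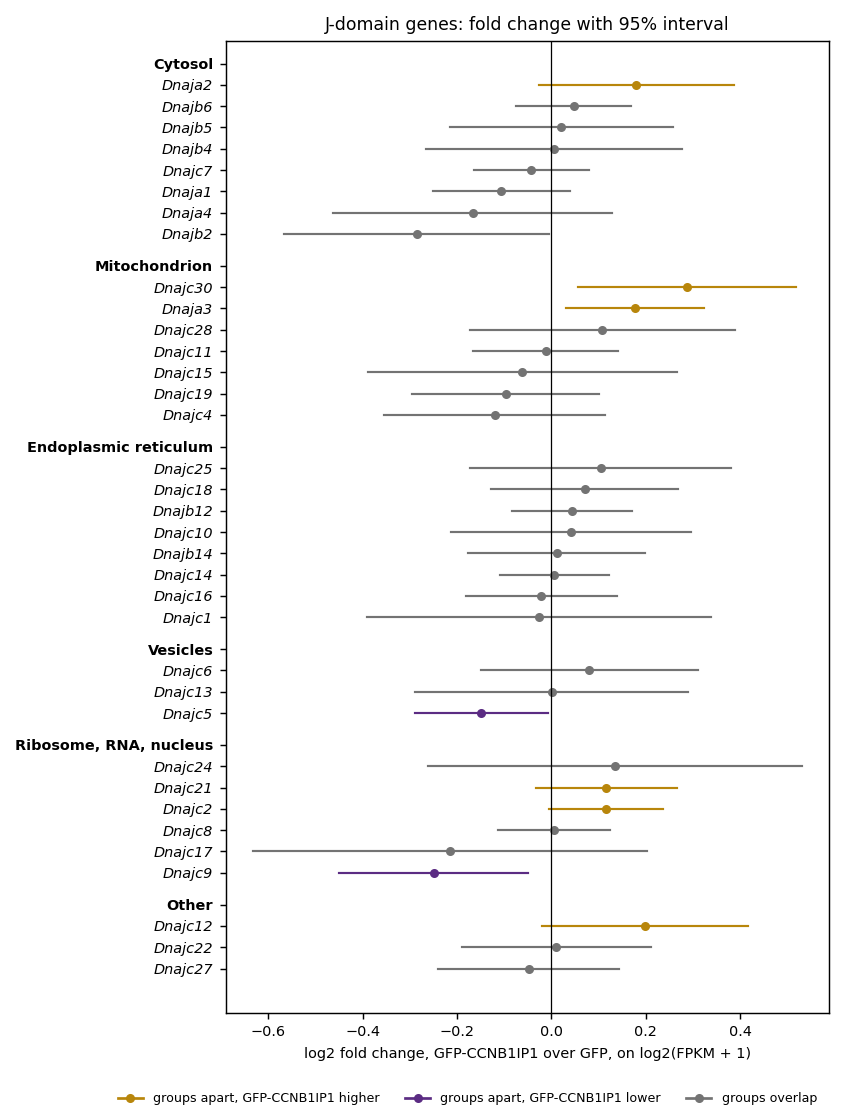
Log2 fold change of GFP-CCNB1IP1 over GFP on log2(FPKM + 1), with its 95% limma interval, for the 35 tested J-domain genes grouped by place or role. Gold and purple mark the 6 and 2 genes whose libraries were all higher or all lower in GFP-CCNB1IP1, and grey the 27 whose groups overlapped; no gene passed at an adjusted p under 0.05.

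Among the cytosolic members that fold proteins or keep them from aggregating, 4 of 8 tested had a log2 fold change above 0 and 4 below. Dnaja2 (ENSMUSG00000031701.7, chromosome 8, 86264262 to 86281973, with no build named in the labels or tables) had 56.8, 45.3 and 46.3 FPKM in the GFP-CCNB1IP1 libraries and 45.1, 41.1 and 43.8 FPKM in the GFP libraries. The groups lay apart by little, and GFP-CCNB1IP1 replicate 1 stood well above the rest. The log2 fold change was 0.18 (SE 0.089, limma, adjusted p = 0.498), and 0.08 without that library.

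Dnaja1, the most abundant member, went the other way in its means. It had 119.6, 102.0 and 115.6 FPKM in the GFP-CCNB1IP1 libraries and 119.4, 120.2 and 122.8 FPKM in the GFP libraries. The low value was that of replicate 2, the shallowest library, and the groups overlapped (log2 fold change -0.11, SE 0.063, limma, adjusted p = 0.572; -0.039 without that library). Its locus overlaps the end of Smu1, at 24.0 FPKM in the GFP-CCNB1IP1 libraries and 22.7 FPKM in the GFP libraries.

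Dnajb2, a class B protein rich in neurons that also binds ubiquitin, was outside the rule for named genes and is given because it is among the 5 members with an unadjusted p under 0.05. It had 16.5, 13.5 and 19.7 FPKM in the GFP-CCNB1IP1 libraries and 21.3, 20.2 and 19.1 FPKM in the GFP libraries. The groups overlapped, since GFP-CCNB1IP1 replicate 3 lay above GFP replicate 3 (log2 fold change -0.29, SE 0.12, limma, adjusted p = 0.433; -0.16 without GFP-CCNB1IP1 replicate 2). Dnajc7 and Dnajb6 had log2 fold changes of -0.04 and 0.047, and Dnajb4 and Dnajb5, related class B proteins, 0.004 and 0.021. Dnaja4, the scarcest class A gene, averaged 3.57 ± 0.669 FPKM in the GFP-CCNB1IP1 libraries and 4.11 ± 0.458 FPKM in the GFP libraries (SD, n = 3 each).

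Of the 7 mitochondrial members, 3 had a log2 fold change above 0 and 4 below. An unadjusted p under 0.05 on the higher side was reached by 2 of them, or 28.6%, against 5.59% of all genes tested, and by 0 of all members without GFP-CCNB1IP1 replicate 1. Dnajc30 (ENSMUSG00000061118.9, chromosome 5, 135093056 to 135094716), a protein of the inner membrane found with ATP synthase, had 6.96, 6.89 and 6.90 FPKM in the GFP-CCNB1IP1 libraries and 5.80, 6.11 and 4.64 FPKM in the GFP libraries. The GFP-CCNB1IP1 values were nearly equal and the spread lay among the GFP libraries (log2 fold change 0.29, SE 0.10, limma, adjusted p = 0.354; 0.19 without GFP replicate 3 and 0.18 with a pseudocount of 5). Its locus overlaps the end of Bud23, at 19.3 FPKM in the GFP-CCNB1IP1 libraries and 19.7 FPKM in the GFP libraries.

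Dnaja3 (ENSMUSG00000004069.18, chromosome 16, 4457853 to 4525559), the matrix partner of mitochondrial Hsp70, had 35.1, 33.9 and 34.4 FPKM in the GFP-CCNB1IP1 libraries and 32.0, 27.9 and 31.4 FPKM in the GFP libraries. All 3 GFP-CCNB1IP1 libraries were higher, and GFP replicate 2 was the lowest (log2 fold change 0.18, SE 0.063, limma, adjusted p = 0.357; 0.12 without GFP replicate 2). Its locus overlaps those of Coro7, at 21.4 FPKM in the GFP-CCNB1IP1 libraries and 20.4 FPKM in the GFP libraries, and of Vasn, at 5.62 FPKM in the GFP-CCNB1IP1 libraries and 5.76 FPKM in the GFP libraries. Whether reads of such overlapping genes were told apart is not known, since strand was not stated, and their part in these values was not tested.

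Other mitochondrial members overlapped between the groups. Dnajc19, of the motor that draws proteins into the matrix, had 27.0, 22.0 and 23.1 FPKM in the GFP-CCNB1IP1 libraries and 26.3, 26.9 and 23.9 FPKM in the GFP libraries. A copy listed as Dnajc19-ps had 10.1, 9.01 and 7.32 FPKM in the GFP-CCNB1IP1 libraries and 7.28, 6.10 and 6.40 FPKM in the GFP libraries, so how reads were divided between gene and copy is uncertain. Dnajc11, found with the complexes that shape the cristae, averaged 24.2 ± 0.853 FPKM in the GFP-CCNB1IP1 libraries and 24.4 ± 1.78 FPKM in the GFP libraries (SD, n = 3 each). Dnajc4 averaged 9.12 ± 0.501 FPKM in the GFP-CCNB1IP1 libraries and 10.05 ± 1.35 FPKM in the GFP libraries (SD, n = 3 each). The log2 fold changes of Dnajc15 and Dnajc28 were -0.062 and 0.11.

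In the endoplasmic reticulum, all 8 members were tested and the groups overlapped for each, with log2 fold changes from -0.026 to 0.10. Over all genes tested the groups lay apart for 17.6%, and with so few members nothing is read from this. Dnajc14 had 31.4, 29.9 and 31.3 FPKM in the GFP-CCNB1IP1 libraries and 31.4, 30.6 and 30.1 FPKM in the GFP libraries, the narrowest spread of the 35 members. Dnajb12 had 29.3, 31.4 and 30.1 FPKM in the GFP-CCNB1IP1 libraries and 29.7, 28.1 and 30.2 FPKM in the GFP libraries. Dnajc1, which joins the luminal Hsp70 BiP to ribosomes at the membrane, varied far more, with 18.0, 15.8 and 10.8 FPKM in the GFP-CCNB1IP1 libraries and 14.85, 14.55 and 15.08 FPKM in the GFP libraries. Its highest and lowest values were both in the GFP-CCNB1IP1 group, which averaged 14.8 ± 3.68 FPKM, against 14.8 ± 0.267 FPKM in the GFP libraries (SD, n = 3 each). Dnajc10, a reductase of disulfide bonds, had a log2 fold change of 0.041, and Dnajc16, Dnajc18, Dnajc25 and Dnajb14 lay between -0.021 and 0.10.

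Of the 5 vesicle and clathrin members, 3 were tested, and the groups lay apart for Dnajc5 alone. That is 33.3% of those tested, against 17.6% of all genes tested, and with so few genes nothing is read from it. Dnajc5 (ENSMUSG00000000826.17, chromosome 2, 181162278 to 181196926), the cysteine string protein that guards release machinery on synaptic vesicles, had 23.6, 22.1 and 23.3 FPKM in the GFP-CCNB1IP1 libraries and 24.5, 25.1 and 27.2 FPKM in the GFP libraries. All 3 GFP-CCNB1IP1 libraries were lower, by a small step (log2 fold change -0.15, SE 0.061, limma, adjusted p = 0.419). Without GFP replicate 3, the highest library, the log2 fold change was -0.11. Dnajc13, an endosomal protein known as RME-8, had 9.68, 13.1 and 12.5 FPKM in the GFP-CCNB1IP1 libraries and 10.3, 11.6 and 13.2 FPKM in the GFP libraries, with full overlap. Dnajc6, auxilin, had 2.81, 2.58 and 2.72 FPKM in the GFP-CCNB1IP1 libraries and 2.26, 2.74 and 2.52 FPKM in the GFP libraries. Its broadly expressed relative Gak, which the naming rule does not take, had 22.3, 22.0 and 21.9 FPKM in the GFP-CCNB1IP1 libraries and 20.3, 20.1 and 19.8 FPKM in the GFP libraries. The groups of Gak lay apart with little spread in either (log2 fold change 0.13, SE 0.050, limma, adjusted p = 0.389).

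Of 6 members that act at the ribosome, on RNA or in the nucleus, the groups lay apart for 3, against 17.6% of all genes tested; with so few genes nothing is read from this. Dnajc9 (ENSMUSG00000021811.8, chromosome 14, 20434706 to 20438978), a cochaperone that binds histones H3 and H4, had 15.5, 13.5 and 13.5 FPKM in the GFP-CCNB1IP1 libraries and 15.6, 18.7 and 16.8 FPKM in the GFP libraries. Replicates 1 of both groups nearly met, at 15.5 and 15.6 FPKM (log2 fold change -0.25, SE 0.086, limma, adjusted p = 0.352). Without GFP replicate 2, the highest library, the log2 fold change was -0.18. Dnajc2, the J protein of the ribosome-associated complex, had 23.5, 23.6 and 24.5 FPKM in the GFP-CCNB1IP1 libraries and 22.5, 21.6 and 21.6 FPKM in the GFP libraries. Its values were higher in all 3 GFP-CCNB1IP1 libraries (log2 fold change 0.12, SE 0.052, limma, adjusted p = 0.456), while Hspa14, its Hsp70 partner in that complex, averaged 32.0 ± 1.56 FPKM in the GFP-CCNB1IP1 libraries and 33.4 ± 2.86 FPKM in the GFP libraries (SD, n = 3 each). Dnajc21, needed late in the making of the large ribosomal subunit, had 19.0, 19.4 and 20.2 FPKM in the GFP-CCNB1IP1 libraries and 18.5, 18.7 and 16.6 FPKM in the GFP libraries (log2 fold change 0.12, SE 0.065, limma, adjusted p = 0.544; 0.065 without GFP replicate 3). Dnajc24, which takes part in making diphthamide on an elongation factor, rested on a mean of 34.1 implied fragments, and its interval ran from -0.26 to 0.53.

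Dnajc12, a cochaperone of the aromatic amino acid hydroxylases that include tyrosine hydroxylase, had 3.23, 2.93 and 3.25 FPKM in the GFP-CCNB1IP1 libraries and 2.55, 2.80 and 2.46 FPKM in the GFP libraries. The groups lay apart (log2 fold change 0.20, SE 0.095, limma, adjusted p = 0.480; 0.097 with a pseudocount of 5), and the deposited intervals imply a mean of only 25.6 fragments behind each value, the fewest of the tested members, with a counting error of 19.8%. Th, the tyrosine hydroxylase gene itself, averaged 2.30 FPKM in the GFP-CCNB1IP1 libraries and 2.65 FPKM in the GFP libraries, with overlapping groups. Dnajc22 averaged 9.03 ± 0.979 FPKM in the GFP-CCNB1IP1 libraries and 8.93 ± 0.346 FPKM in the GFP libraries, and Dnajc27, which joins a J domain to a small GTPase, 6.58 ± 0.199 FPKM in the GFP-CCNB1IP1 libraries and 6.85 ± 0.637 FPKM in the GFP libraries (SD, n = 3 each).

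**Figure D4:**
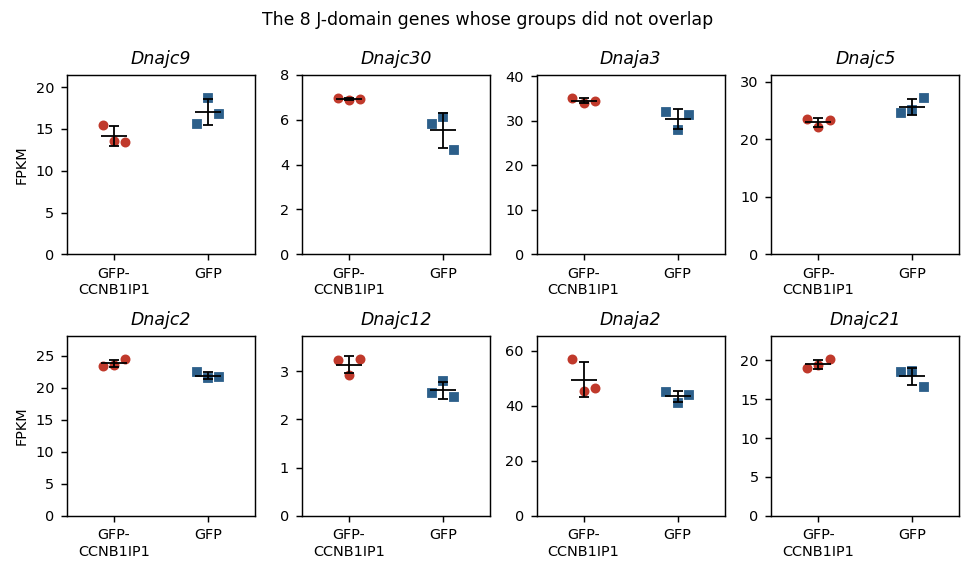
FPKM in each library for the 8 tested J-domain genes whose groups did not overlap, ordered by p, with GFP-CCNB1IP1 on the left and GFP on the right of each panel; black lines are the mean and SD (n = 3 each) and each axis starts at 0. Dnajc9 and Dnajc5 are lower and the other 6 higher in the GFP-CCNB1IP1 libraries, and the gap between groups is narrow beside the level in each panel.

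The Hsp70 proteins that J domains act on were read from the same fit. Of 15 listed, 14 could be tested, 4 had a log2 fold change above 0 and 10 below, and none passed at an adjusted p under 0.05 (limma). An unadjusted p under 0.05 was reached by 1 higher gene, or 7.14%, against 5.59% of all genes tested, and by 5 lower genes, or 35.7%, against 5.77% of all genes tested. The 5 are Hspa1a, Hspa1b, Hspa8, Hsph1 and Hspa12a, of which Hspa1a and Hspa1b may share reads. For Hspa12a the groups overlapped (log2 fold change -0.30, SE 0.11, limma, adjusted p = 0.365). The list is short and was chosen with earlier results known, so nothing is read from these shares. Hspa8 had 1129, 1034 and 1114 FPKM in the GFP-CCNB1IP1 libraries and 1163, 1242 and 1206 FPKM in the GFP libraries. All 3 GFP-CCNB1IP1 libraries were lower (log2 fold change -0.14, SE 0.050, limma, adjusted p = 0.357). The stress-inducible Hspa1b had 2.10, 1.79 and 1.84 FPKM in the GFP-CCNB1IP1 libraries and 5.58, 9.17 and 6.90 FPKM in the GFP libraries (adjusted p = 0.0987, limma; 0.0341 without GFP replicate 1, the only alternative in which it passed, in a range of 0.0341 to 0.430). Hspa1a, beside it and nearly the same in sequence, had 0.559, 0.687 and 0.414 FPKM in the GFP-CCNB1IP1 libraries and 1.92, 2.90 and 2.61 FPKM in the GFP libraries, and the division of reads between these copies is uncertain. With pseudocounts of 0.1, 1 and 5 the log2 fold change was -1.84, -1.48 and -0.81 for Hspa1b and -1.98, -1.16 and -0.43 for Hspa1a, so which of them had the larger one depends on the pseudocount. Hsph1, an Hsp70-like exchange factor, averaged 85.9 ± 7.73 FPKM in the GFP-CCNB1IP1 libraries and 102.8 ± 9.25 FPKM in the GFP libraries (SD, n = 3 each).

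Hspa5 and Hspa9 had log2 fold changes above 0, while Hyou1, an Hsp70-like protein of the endoplasmic reticulum, had -0.023. Hspa5, the BiP of the endoplasmic reticulum, had 313.2, 295.7 and 310.8 FPKM in the GFP-CCNB1IP1 libraries and 279.0, 283.8 and 273.2 FPKM in the GFP libraries. Hspa9, mitochondrial Hsp70, had 165.4, 163.4 and 164.6 FPKM in the GFP-CCNB1IP1 libraries and 157.0, 141.0 and 159.9 FPKM in the GFP libraries. Both genes had groups that lay apart, with log2 fold changes of 0.14 (SE 0.042, limma, adjusted p = 0.317) and 0.11 (SE 0.055, limma, adjusted p = 0.503; 0.053 without GFP replicate 2), and neither passed. Hscb, a mitochondrial J protein of iron-sulfur cluster assembly, had 11.2, 10.5 and 10.1 FPKM in the GFP-CCNB1IP1 libraries and 9.38, 8.98 and 8.40 FPKM in the GFP libraries (log2 fold change 0.23, SE 0.072, limma, adjusted p = 0.322). Grpel1, the exchange factor of mitochondrial Hsp70, had 12.76, 12.44 and 12.88 FPKM in the GFP-CCNB1IP1 libraries and 11.85, 12.39 and 11.62 FPKM in the GFP libraries, apart by a narrow margin. Its relative Grpel2 averaged 4.49 ± 0.289 FPKM in the GFP-CCNB1IP1 libraries and 4.75 ± 0.220 FPKM in the GFP libraries (SD, n = 3 each).

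The 9 exchange factors were split, 4 above 0 and 5 below. None passed or reached an unadjusted p under 0.05 (limma), which 11.4% of all genes tested reached. Bag3, which links Hsp70 to selective autophagy, had 49.0, 51.8 and 45.6 FPKM in the GFP-CCNB1IP1 libraries and 52.2, 53.7 and 51.6 FPKM in the GFP libraries, and the groups overlapped (log2 fold change -0.11; -0.059 without GFP-CCNB1IP1 replicate 3). Bag4 had a log2 fold change of -0.17 (-0.089 without GFP replicate 3), and Bag1 and Hspbp1 0.011 and 0.021. All 3 listed genes that dock Hsp70 or hand on its clients had groups that lay apart on the lower side, where 8.9% of all genes tested did, at log2 fold changes of -0.10 for St13 (-0.06 without GFP-CCNB1IP1 replicate 2 or GFP replicate 2), -0.097 for Stip1 and -0.094 for Stub1, and none passed or reached an unadjusted p under 0.05 (smallest adjusted p 0.448, limma). Stip1, which bridges Hsp70 and Hsp90, had 150.3, 142.8 and 150.0 FPKM in the GFP-CCNB1IP1 libraries and 160.4, 154.8 and 158.9 FPKM in the GFP libraries.

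The J proteins that the naming rule leaves out showed no passing gene either. Of these 8, Hscb and Gak reached an unadjusted p under 0.05 (limma), both on the higher side. That is 25.0%, against 5.59% of all genes tested on that side, and with so few genes nothing is read from it. Dnajb1, the class B partner of Hsp70 that heat shock induces, had 18.0, 16.5 and 17.8 FPKM in the GFP-CCNB1IP1 libraries and 18.5, 21.9 and 18.1 FPKM in the GFP libraries, apart by a margin that is narrow beside the spread (log2 fold change -0.15, SE 0.083, limma, adjusted p = 0.545; -0.065 without GFP replicate 2). Dnajb9, Dnajb11 and Dnajc3, all of the lumen of the endoplasmic reticulum, had log2 fold changes of 0.016, 0.015 and 0.009. Sec63, of the translocon, had -0.029.

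**Figure D5:**
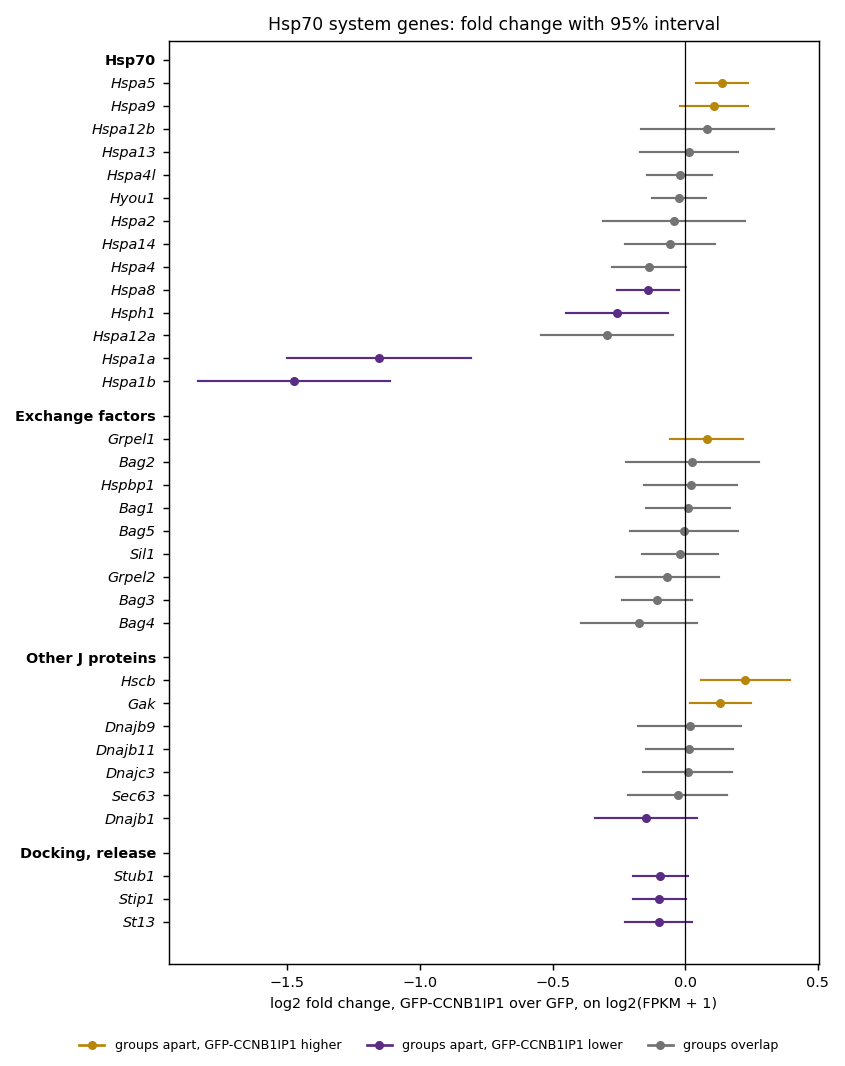
Log2 fold change of GFP-CCNB1IP1 over GFP on log2(FPKM + 1), with its 95% limma interval, for tested genes of the Hsp70 system outside the family, with 1 of the 34 not shown: Hsp70 proteins, exchange factors, other J proteins, and docking or release factors. Colours mark groups that lay apart. Of those genes, Hspa1a and Hspa1b lie farthest below 0, Hspa8, Hsph1, Dnajb1, Stip1, St13 and Stub1 slightly below, and Hspa5, Hspa9, Hscb, Gak and Grpel1 slightly above. Hspa12a, whose groups overlapped, lies at -0.30, and no gene passed at an adjusted p under 0.05.

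Precision differed across the family. The deposited intervals imply from 25.6 to 2046 fragments a library behind the tested members, with a median of 332.2. The coefficient of variation over 3 libraries had a median of 6.38% in the GFP-CCNB1IP1 group and 6.11% in the GFP group. The highest library had a median of 1.26 times the lowest. It had over 1.5 times the lowest in 6 members, Dnajc17, Dnajc24, Dnajc1, Dnajc15, Dnajb2 and Dnajc30, which were chosen for this after their values were seen. GFP-CCNB1IP1 replicate 2, the shallowest library, held the lowest value of 11 of the 35 members and the highest of 2, while GFP-CCNB1IP1 replicate 1 held the lowest of 1 and the highest of 10; the part of depth in this was not tested.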

How the data were processed

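The 6 RNA-seq libraries were built from poly-A RNA with a random-primer kit, per the labels' protocols, which do not mention strand. The submitters' processing notes list HISAT2 and Cufflinks, with no version; build and annotation are not named in them. The authors deposited FPKM per gene with a lower and an upper confidence bound, 1 table per library, per the file headers. Total fragments are not in the columns used here; they were estimated as the square of FPKM over its standard error, taking the upper bound as 2 standard errors above, so counting errors are estimates, and relative depth came from 2242 genes with 5 to 50 implied fragments in each library.

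Each table had 53537 rows; rows of the same identifier were summed (38 identifiers, none a member). Genes with a mean of at least 1 FPKM were tested on log2(FPKM + 1), a scale that understates the change of low genes, with limma (version 3.58.1, run under R 4.3.3), using the mean-variance trend, no block and Benjamini-Hochberg adjustment over 13231 genes. No p is given for the family as a whole, and an exact permutation test of 3 against 3 cannot go below 0.1. On data simulated for this comparison with 13231 genes and 3 draws, 75.0% of genes changed by 0.5 (log2) and 95.3% of those changed by 1 were recovered. These genes were well above the filter, 300 were changed by each amount over the draws, and 16 calls were false. In the real comparison 1 gene was called. With many changed genes the adjusted threshold is easier to pass, so these shares do not give the chance of finding a change here.

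Members, role lists and lists of Hsp70 system genes were chosen with earlier results of these data known. Named members are those whose groups lay apart, the 8 most abundant and up to 4 of each role list; of the other lists, up to 4 with the smallest p and 3 most abundant. Hspa12a, Hspa14, Hyou1, Th, Chgb, Ret, Chga, Slc18a2, Gata2, Gata3, Stmn2, Dnajb9, Dnajc3, Dnajc19-ps and single values of further members were added after their values were seen. Starts were taken as counted from 0, as Cufflinks writes them, and are given from 1. No sequences are shown. Values of 2 listed genes outside the family are not reported here, though counts over their lists include them. Alternatives were other pseudocounts, filters, scalings and limma settings, a block for the replicate number and each library left out.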

Additional observations from a re-analysis of the deposited data

How the results depend on the processing

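No J-domain member passed under any of the 16 alternatives. The 8 members whose groups lay apart kept their sign in each alternative that tested them (adjusted p from 0.288 to 0.835, limma). For groups that lie apart, a left-out library or another pseudocount, filter, block or limma setting cannot change the sign. Only TPM, median-of-ratios scaling and quantile normalization could have done so, and the kept sign says little beyond the choice of these members. Same-numbered libraries did not deviate together (correlations of 0.0226, -0.0093 and -0.0107 for numbers 1 to 3), so the numbers were not taken to pair them. The count of genes called among all genes, 1, was 0 with the replicate block, a pseudocount of 5, no filter, or limma without the trend, and 0 to 4 with a library left out. Members at an unadjusted p under 0.05 on the lower side numbered 3, 1 with the replicate block, 1 in limma without the trend, and 0 to 4 with a library left out; on the higher side they numbered 2, and 0 to 3 with a library left out. With a library left out, lower members with groups apart numbered 2 to 5 and higher ones 6 to 9, though 2 libraries against 3 lie apart more easily. Hsp70 system genes called then numbered 0 to 1, the call being Hspa1b without GFP replicate 1. The overlap of groups was not recounted after quantile normalization.

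Of 45 genes followed, 12 near 0 changed sign in some alternative. With TPM, the log2 fold change was -0.0057 for Dnajc8, -0.0057 for Dnajc14, -0.011 for Dnajc13, -0.000194 for Dnajc22 and -2.24e-06 for Bag1; Dnajc8 was at -0.0095 with quantile normalization and Dnajc13 at -0.000582 with median-of-ratios scaling. With a library left out, Dnajc8 ran from -0.037 to 0.031, Dnajc14 from -0.0073 to 0.028, Dnajc11 from -0.042 to 0.045, Dnajc1 from -0.171 to 0.173, Dnajc16 from -0.051 to 0.014, Dnajc13 from -0.079 to 0.123, Dnajc22 from -0.064 to 0.074, Dnajc27 from -0.097 to 0.016, Bag1 from -0.059 to 0.058, Hspbp1 from -0.029 to 0.081, Dnajb11 from -0.021 to 0.079 and Sec63 from -0.084 to 0.063. The cause was not tested. Depth limits Dnajc12, Dnajc24 and Dnajc28 most.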
